A study of Drosophila melanogaster with 4 samples.

Results

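The regions around Eip74EF and Eip75B, a pair of ecdysone puff genes on chromosome arm 3L, were examined in a genome-wide map of Abd-B-GFP binding in Drosophila melanogaster larvae. A peak belonged to the Eip74EF region when its midpoint lay on 3L between 17540000 and 17625000, and to the Eip75B region when it lay between 17930000 and 18070000, on FlyBase release 5. The first region spans 85 kb and held 23 peaks, and the second spans 140 kb and held 13. Together these 36 peaks are part of 833 on 3L and of 4389 in the whole list. The regions were chosen by the positions, number and scores of their peaks in this same list, so every count, score, width and gap below describes these data and carries no test.

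The map came from chromatin immunoprecipitation and sequencing (ChIP-seq) of whole wandering larvae of the last instar, with a rabbit polyclonal antibody against GFP. All 4 libraries, 2 of immunoprecipitated DNA and 2 of input DNA, are labelled with the strain Abd-B-GFP, the genotype w; PBac{y[+]-attP-3B}VK00037 and a transgene that holds the genomic coding region of Abd-B with GFP in place of its stop codon, at the stage L3 and with the sex given as unknown. The protocol text names a different stock, y; bw cn sp, and the strain label was followed here. The deposited list merges the libraries into 1 set of peaks, so it holds no depth and no error between replicates, and signal is averaged over all larval tissues, including those that lack the protein. The labels do not say whether the larvae also kept their own Abd-B gene.

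Eip74EF and Eip75B are early genes of the ecdysone response. The steroid hormone ecdysone binds a receptor made of EcR and Usp, and the early genes are among its direct targets in late larvae, where their loci swell into the puffs 74EF and 75B of the salivary gland polytene chromosomes. Eip74EF encodes transcription factors with an ETS DNA-binding domain, Eip75B encodes nuclear receptors of the Rev-Erb type that bind heme, and both genes make several isoforms from alternative promoters. Abd-B, the protein mapped here, is the Hox factor that patterns the posterior abdomen and the genitalia.

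The names of the regions come from the rule that set their bounds. No gene annotation of release 5 was used here, so it was not tested which peaks lie in exons, introns or promoters, nor whether both genes lie wholly within the bounds. In the RefSeq gene table of release 6, used for gene order only, both genes are on 3L and 60 listed genes lie between them, 48 of them protein-coding. The protein-coding genes next to Eip74EF are CycT and Vps60, and those next to Eip75B are CG5290 and CG32192, so peaks near the outer bounds could lie closer to another gene.

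The Eip74EF region was the more densely bound. It held 2.71 peaks per 10 kb, the Eip75B region held 0.929, and the rest of 3L held 0.329. Peaks covered 13789 bp or 16.2% of the Eip74EF region and 6132 bp or 4.38% of the Eip75B region, against 1.60% of the rest of the arm. The 305 kb between the regions held 10 peaks, or 0.328 per 10 kb, with scores from 7.63 to 49.38. Both regions thus stood above the sequence between them, which was as sparse as the rest of the arm.

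The bounds fell in stretches without peaks. The outermost members of the Eip74EF region lay 10.4 kb (score 52.86) and 12.7 kb (score 21.81) inside its bounds, and the nearest peaks outside lay 12.7 kb (score 10.45) and 12.4 kb (score 14.83) beyond them. For the Eip75B region the outermost members lay 13.6 kb (score 16.44) and 12.2 kb (score 14.61) inside, and the nearest outside peaks lay 14.0 kb (score 15.60) and 12.5 kb (score 12.78) beyond. Moving any bound by 10 kb therefore changed no member.

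**Figure D1:**
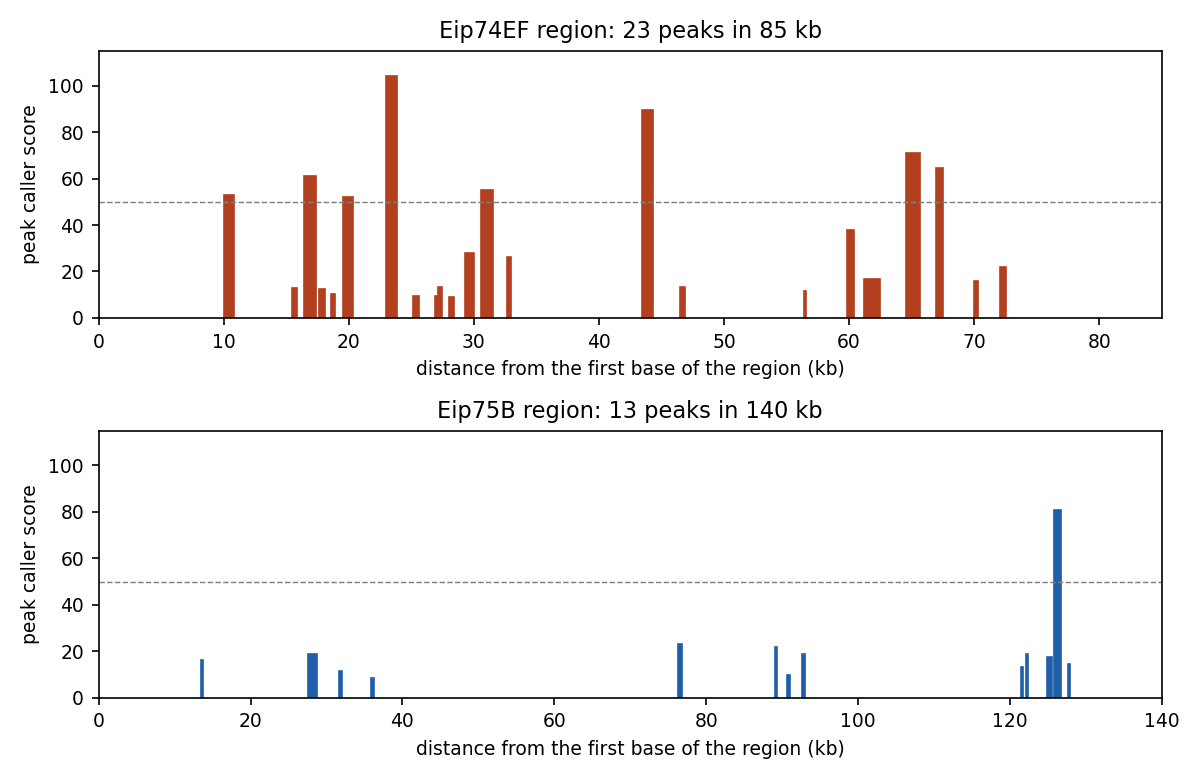
Peaks of the Eip74EF region (top) and the Eip75B region (bottom), each drawn as a bar with its true width along the region (kb from its first base) and with its peak caller score as its height; the dashed line marks a score of 50. In the Eip74EF region 8 of 23 peaks reach 50, spread over most of the bound stretch, and in the Eip75B region 1 of 13 does, near the right end.

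The score is the authors' own value for each peak, given by the peak caller. The file does not define it, and it serves here only to rank peaks within the list. The strongest peak of the Eip74EF region, 857 bp wide, lay at 17562957 to 17563813 and scored 104.29, the rank of 18 among the 833 peaks of 3L. The next was at 17583415 to 17584324, with a width of 910 bp and a score of 89.44 (rank 28 on the arm). It was followed by the peak at 17604559 to 17605698, 1140 bp wide with a score of 71.12 (rank 47), and by its right-hand neighbour at 17606973 to 17607540, 568 bp wide with a score of 64.34 (rank 60). The peak at 17556446 to 17557375, 930 bp wide, had a score of 61.02 (rank 63). High scores were thus shared among several separate peaks.

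The peaks that reached 50 also included those at 17570580 to 17571522 (score 54.90), at 17550034 to 17550813 (52.86) and at 17559568 to 17560306 (51.99). The limit of 50 was set with these scores known. These 8 peaks made up 34.8% of the region's 23 (exact Clopper-Pearson 95% interval 16.4 to 57.3%, counting error between peaks only), where 10.3% of all 3L peaks reached 50. They were 568 to 1140 bp wide, held 49.8% of the bound bases of the region and lay over 57.5 kb, with midpoints 2.13 to 21.3 kb apart (median 6.49 kb, 7 distances). The other 15 peaks had scores of at most 38.07 and a median of 13.32, near the median of 14.02 of all 3L peaks under 50. The Eip74EF region therefore held a set of high peaks interspersed with low ones.

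The weakest peak of the Eip74EF region, at 17568009 to 17568382, had a score of 9.08, and the narrowest, 201 bp at 17596381 to 17596581, had a score of 11.73. The widest, at 17601192 to 17602435, spanned 1244 bp but had a score of only 16.69. Its rank on the arm was 28 by width and 341 by score.

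In the Eip75B region 1 of 13 peaks (7.69%) reached a score of 50, a share near the 10.3% of all 3L peaks. This peak of 997 bp lay at 18055765 to 18056761 and scored 81.03, the rank of 34 on 3L. The next highest peaks scored 23.31 at 18006307 to 18006789 (rank 218) and 22.08 at 18019085 to 18019331 (rank 230). Scores of 18.96 were reached both at 17957625 to 17958750 and at 18052094 to 18052440. The former was the widest peak of the region, at 1126 bp, so in both regions the widest peak was not the strongest. The weakest was at 17965882 to 17966265 with a score of 8.75, and the narrowest, 228 bp, was the first of the region, at 17943528 to 17943755, with a score of 16.44.

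The median score was 21.81 in the Eip74EF region (95% order-statistic interval 12.81 to 52.86) and 17.60 in the Eip75B region (11.72 to 22.08), against 14.71 in the rest of 3L. The intervals of the regions overlap, and they take peaks as independent. The upper quartile was 53.88 in the Eip74EF region and 18.96 in the Eip75B region, while the lower quartiles were 12.63 and 13.44. A score at or above the upper quartile of 3L, 24.07, was reached by 11 of 23 peaks of the Eip74EF region (47.8%, exact 95% interval 26.8 to 69.4%) and by 1 of 13 of the Eip75B region (7.69%, 0.195 to 36.0%). Over all 3L peaks this share was 25.1%. The scores helped to choose the regions, so nothing is read from these differences.

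The median width was 549 bp in the Eip74EF region (95% order-statistic interval 374 to 780 bp), 370 bp in the Eip75B region (257 to 646 bp) and 392 bp in the rest of the arm. A width of at least 584 bp, the upper quartile of 3L, was reached by 9 of 23 peaks (39.1%, exact 95% interval 19.7 to 61.5%) and by 3 of 13 (23.1%, 5.04 to 53.8%), against 25.1% of all 3L peaks. Spearman's correlation between the score and the width of a peak was 0.753 in the Eip74EF region (23 peaks) and 0.292 in the Eip75B region (13 peaks), against 0.739 over the other 797 peaks of 3L. These correlations describe peaks of 1 list, which share their libraries.

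**Figure D2:**
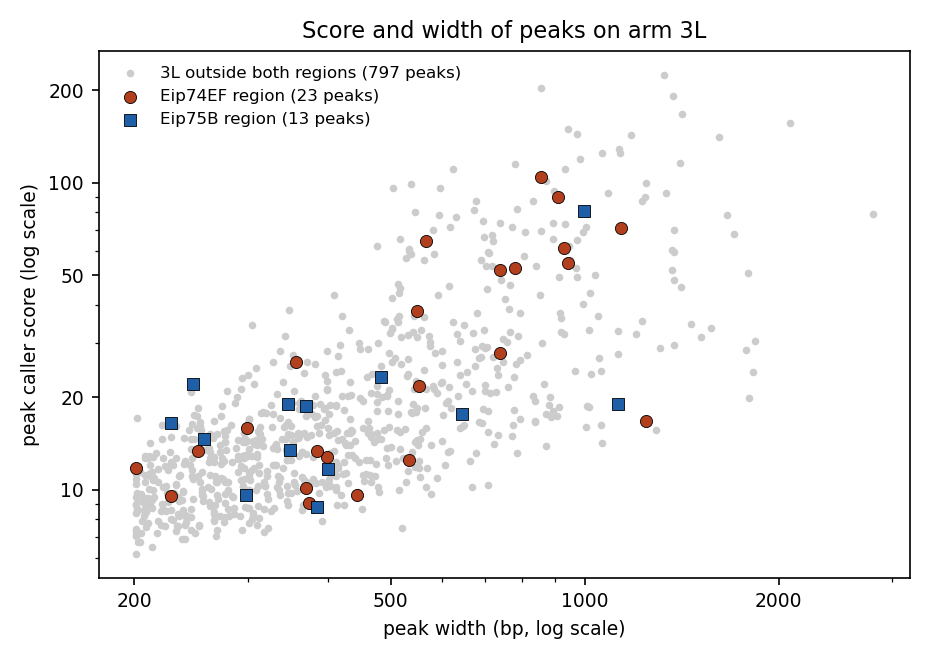
Width (bp) and peak caller score of each peak on 3L, both on log scales, with the Eip74EF region as circles, the Eip75B region as squares and the other 797 peaks in grey. The high peaks of the Eip74EF region lie among the other wide, high peaks of the arm, and the widest peak of each region (1244 and 1126 bp) lies at the lower edge of the cloud for its width.

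Peaks of the Eip74EF region stood close together. The median gap, from the end of a peak to the start of the next, was 1284 bp over 22 gaps (95% order-statistic interval 595 to 2469 bp), against 10625 bp in the rest of the arm. The shortest gap was 53 bp, between the peaks that end at 17567109 and start at 17567163, and the longest was 10436 bp, between 17572978 and 17583415. Gaps under 1 kb made up 9 of 22 (40.9%), against 18.5% in the rest of 3L. Split at gaps over 5 kb, the region fell into 3 groups. The left group of 14 peaks spanned 22.9 kb and held 5 of the peaks that reached 50, a pair of peaks over 3.43 kb held 1, and the right group of 7 peaks over 16.2 kb held 2. High peaks thus occurred in every group.

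In the Eip75B region the median gap was 2660 bp over 12 gaps (95% order-statistic interval 938 to 13869 bp), and the interval overlaps that of the Eip74EF region. Of these 12 gaps, 3 (25.0%) were under 1 kb, all of them in the rightmost group of peaks, against 18.5% in the rest of 3L. Gaps over 10 kb numbered 4 of 12, against 407 of 794 in the rest of the arm. The longest, 40041 bp between 17966265 and 18006307, was an unbound stretch of 40.0 kb in a region of 140 kb, and 21.4% of all 3L gaps were at least as long. The shortest, 249 bp, separated the highest peak from its left neighbour at 18054870 to 18055515, which had a score of 17.60. Gaps over 5 kb split the region into 5 groups of 1, 3, 1, 3 and 5 peaks. The group of 5, over 6.56 kb at 18051401 to 18057956, held the only peak above 50, and in the other 4 groups scores stayed at or below 23.31.

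**Figure D3:**
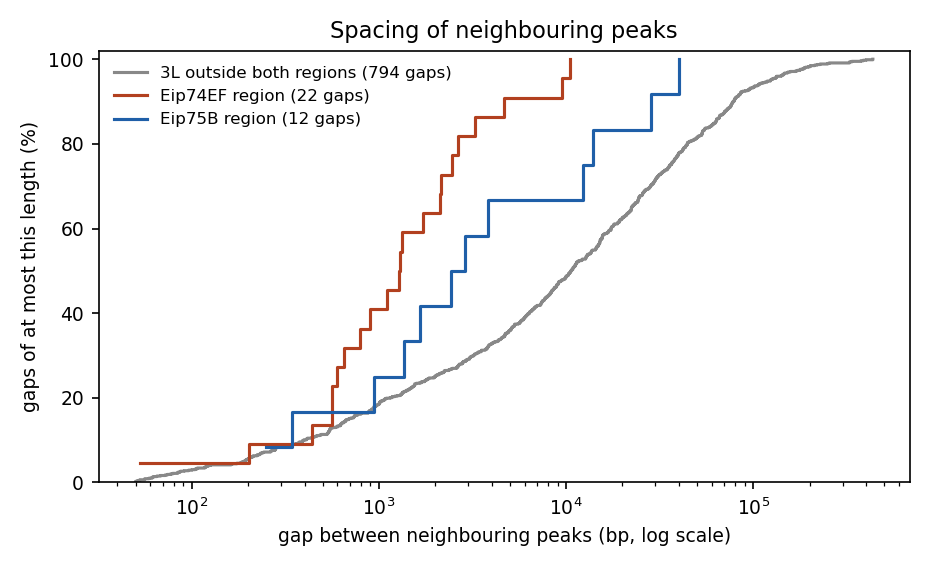
Cumulative share (%) of gaps between neighbouring peaks by length (bp, log scale) for the Eip74EF region (22 gaps), the Eip75B region (12 gaps) and the rest of 3L (794 gaps). The Eip74EF curve ends at 10436 bp, and the Eip75B curve rises in steps up to 40041 bp. The curve for the rest of the arm starts at 50 bp but lies to the right of both at its quartiles and its median of 10625 bp.

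The regions were set beside all windows of their own size on 3L that did not overlap either of them, laid side by side from the start of the arm. Of 281 windows of 85 kb, 0 held as many peaks as the Eip74EF region. These windows had a median of 2 peaks and a maximum of 12, and 57 held none. The number of bases under peaks was also exceeded in 0 of the 281 windows. Scores and widths were matched elsewhere on the arm. Of the 62 windows with at least 5 peaks, 9 had a median score as high and 7 a median width as large. A top score as high was reached in 16 of the 281 windows. Windows slid in steps of 5 kb reached at most 15 peaks. Of 171 windows of 140 kb, 6 (3.51%, exact 95% interval 1.30 to 7.48%) held at least the 13 peaks of the Eip75B region, with a median of 4 and a maximum of 15. Slid in steps of 5 kb, windows of 140 kb reached up to 22 peaks, and 177 of 4760 (3.72%) held at least 13. Of the 72 side-by-side windows with at least 5 peaks, 18 had a median score as high and 40 a median width as large. A top score as high was reached in 29 of the 171. By number of peaks, the Eip75B region was thus among the more crowded stretches of 3L, while the Eip74EF region stood beyond the range of the other windows. Since the regions were picked for their peaks, these ranks are a description.

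**Figure D4:**
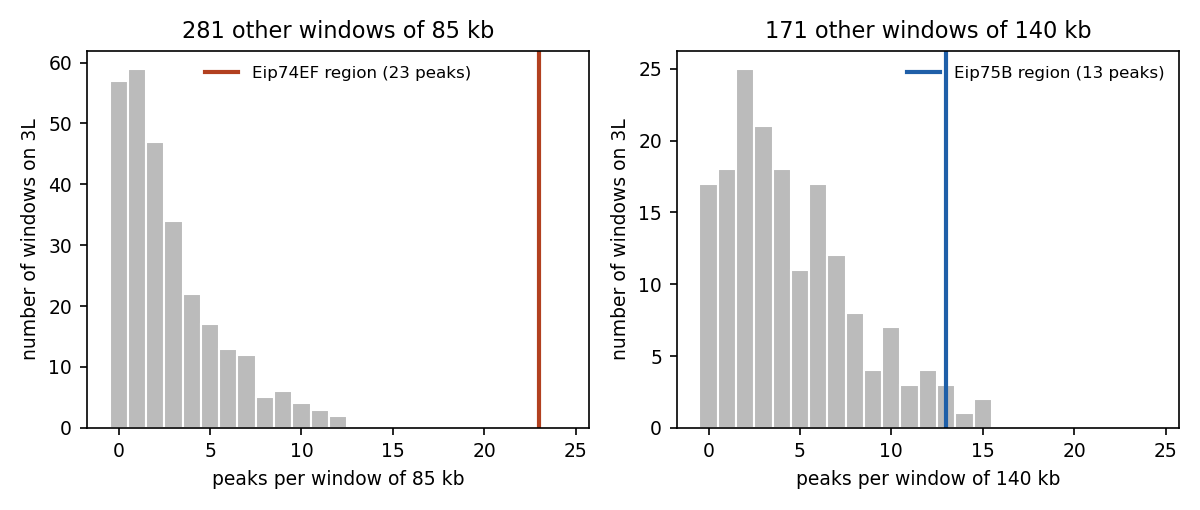
Number of peaks per window on 3L for 281 windows of 85 kb (left) and 171 windows of 140 kb (right) outside both regions, as histograms, with a vertical line at the count of the region of that size. The Eip74EF region (23 peaks) lies beyond the highest window (12), and the Eip75B region (13 peaks) lies within the right tail, which reaches 15.

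The Eip74EF region also held more high peaks than any window it was set beside. With windows slid by 5 kb over 3L, 2L, 2R, 3R and X, outside both regions, 0 of 23535 windows of 85 kb held as many as its 8 peaks with a score of 50 or more, and the maximum was 6. The limit of 50 was set with the scores known. It falls between 51.99, the lowest of the 8, and 38.07, the next peak of the region. No other limit was tried in the windows. The scores also helped to choose the regions, so this rank is a description and carries no test. Sliding windows overlap and are not independent. The 850 of them with at least 10 peaks had a median of 1 such peak and a maximum of 5. More crowded windows existed on other arms. The densest 85 kb window on X, at 1455001 to 1540000, held 37 peaks covering 30.3% of it, against 23 and 16.2% in the Eip74EF region. Its median score was 12.35, and 4 of its peaks reached 50. The genes in this window were not examined. The ecdysone pathway gene br is on X, and whether it lies there was not tested. Crowding is thus not shown to be particular to the Eip74EF region among ecdysone genes. The densest on 3R, at 12000001 to 12085000, held 24, with 16.37 as the median score and 1 such peak. For the Eip75B region, with its 1 high peak, 54 of the 171 windows of its size on 3L held at least as many.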

How the data were processed

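ChIP-seq of Abd-B-GFP larvae gave 1 peak list, on FlyBase release 5 per the file headers. CASAVA 1.7.0.2 and 1.7.0.3, BWA, MACS2 and the build BDGP5 are named per the submitters' processing notes; the source column names MACS. Not given in the sources used here are the threshold of the call, any read filters and how reads of the 2 ChIP and 2 input libraries entered it. The score is the authors' value as deposited, 1 per peak. Depth per library is unknown.

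Peaks were assigned by midpoint. Medians have 95% order-statistic intervals and shares of peaks have exact Clopper-Pearson intervals, which cover counting error between peaks only. The interval for a share of windows counts windows instead and takes them as independent. These windows tile the arm outside the regions, so that interval refers to no wider set. Windows started at the first base of the arm, and complete ones between its first and last peak were kept. The calculations were tested on simulated data. The peaks given by position were the 5 highest, the widest, the narrowest and the weakest of each region and those beside its longest and shortest gap and its bounds; the remaining peaks of 50 or more were added after their values were seen. The members, lists and limits were chosen with earlier results of these data known. A planned motif search in promoters was not run, because no sequence was used here. For the same reason, and without release 5 annotation, other ecdysone pathway genes were not placed among the peaks. Python 3.11.15, pandas 2.3.3, numpy 2.4.6, scipy 1.17.1 and matplotlib 3.10.9 were used.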

Additional observations from a re-analysis of the deposited data

How the results depend on the processing

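Of 52 values recomputed with other peak lists, bounds or windows, 41 stayed within their 95% interval or, for counts, within 1.5 times. The covered lengths have no interval and were all listed as moved. Keeping only peaks at or above the median score of the whole list (15.46) left 14 peaks in the Eip74EF region and 8 in the Eip75B region, lowered the covered length to 12.5% and 3.17%, and by construction raised the shares of the Eip74EF region at or above the upper quartiles of 3L to 78.6% for score and 64.3% for width (54.1% and 50.0% over 3L). Some values that stayed within their wide intervals also shifted under this stricter list. The median gap of the Eip75B region went from 2660 to 12295 bp. The median score of the Eip74EF region went from 21.81 to 52.42, a rise that the score limit favours. Merging peaks less than 1 kb apart left 14 and 10 regions of binding. It raised the covered length to 21.8% and 5.47%, since the gaps are then counted. Widening the bounds by 10 kb added no peak and so lowered the covered length to 13.1% and 3.83%. The peak counts, medians and shares of peaks could not change under this setting, and they are among the 41 by construction. Under each of these, and with sliding windows, 0 windows on 3L held as many peaks as the Eip74EF region, and on all major arms 0.0723% did. For the Eip75B region the share ran from 1.75 to 6.04%. No paired analysis was possible because the deposited peaks carry no values of single libraries. A replicate could not be left out either. The depth is unknown, so its effect on the peaks was not tested.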

Other observations

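On chromosome arm 3L outside the ecdysone puff regions, the most crowded 85 kb window lay at 720001 to 805000. It held 15 peaks, yet its highest score was 18.89 and its peaks covered 5.87% of it. The densest window of that size on 2L, at 14470001 to 14555000, was similar, with 16 peaks and a highest score of 33.93. On chromosome 4 the densest window held only 6 peaks, of which 5 reached a score of 50. The densest window of that size on 2R held 21 peaks, of which 2 reached 50, and those on X and 3R, given above, also held such peaks. All these windows were picked for their counts. How the number of peaks in a window relates to the number of high ones was therefore not tested.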
